A study of Mus musculus with 6 samples.

Results

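Kinesins are motor proteins that use ATP to walk along microtubules or to take them apart. The family was read here in RNA from brain-derived mouse endothelial cells, which form the inner lining of vessels. Members were all rows of the count table whose symbol begins with Kif or Kifc followed by a digit, which gave 44 of 24421 rows. Of these, 12 motors with known work in cell division formed the mitotic class (Kif2c, Kif4, Kif11, Kif14, Kif15, Kif18a, Kif18b, Kif20a, Kif20b, Kif22, Kif23 and Kifc1), and 32 rows formed the other class. The other class held 29 motor genes and 3 rows that are not motor genes: Kif1bp, which encodes a kinesin-binding protein, Kif4-ps, a pseudogene, and Kif16bos, a transcript antisense to Kif16b. It is not a class of transport motors alone, since it also holds microtubule depolymerases, ciliary motors and the atypical, non-motile Kif26a and Kif26b.

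The study compared 3 libraries labelled Fli-1 knockout (KO) with 3 labelled wild-type (WT). All 6 came from cultured endothelial cells that were co-cultured with a vascular niche for 6 days after induction of the deletion and then isolated by fluorescence-activated sorting. The labels give the inducer 4-OHT (4-hydroxytamoxifen) for both groups. They do not name the recombinase, the cells that express it or the deleted part of the gene, nor is it stated whether same-group libraries were separate cultures or animals. P-values here therefore cover only the spread between these libraries, which may be technical. Fli1, an ETS transcription factor gene of endothelial and blood cells, was measured at 76.8, 111 and 77.4 CPM (read counts scaled to a common depth, with library sizes adjusted by the trimmed mean of M-values, TMM) in KO libraries 1 to 3 and at 45.3, 59.6 and 45.8 CPM in WT libraries 1 to 3. It was thus higher in the libraries labelled KO, and directions below are those of the labels. Total counts lay between 17550185 and 21385951. The endothelial markers were abundant in every library, with a summed level of 8 genes between 11560 and 13250 CPM.

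In dividing cells, mitotic kinesins build the bipolar spindle, move and align chromosomes, and complete the midzone and abscission. Their transcripts and proteins accumulate late in the cell cycle and are largely lost as cells leave it. Transport kinesins carry mitochondria, endosomes and secretory vesicles along microtubules in dividing and resting cells alike, and others move cargo into the primary cilium. In endothelium, this traffic serves secretion, receptor recycling and cell migration.

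Promoters of the mitotic class are shown first, because the class moved together in the results that follow. Many late cell cycle genes carry the sequence TTTGAA near their start site, called the cell cycle genes homology region, often together with a CCAAT box. RefSeq promoter sequences (GRCm38.p6, 250 bases before to 50 after the start) were matched by symbol for 34 of 44 members. The entries missing were Kif5a, Kif5b, Kif13b, Kif19a, Kif20a, Kif21b, Kifc2, Kifc3, Kif1bp and Kif4-ps. TTTGAA was searched on both strands, on which it also reads TTCAAA, and CCAAT likewise, which also reads ATTGG. The next lines give 80 bases before to 25 bases from the start site, 5′ to 3′ on the gene's own strand, for the 8 mitotic members with a TTTGAA match near the start and for Kif1c, the most abundant transport kinesin, with matches to either motif in capitals.
Kif11: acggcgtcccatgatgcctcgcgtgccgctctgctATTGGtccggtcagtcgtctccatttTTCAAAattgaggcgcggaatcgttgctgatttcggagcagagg
Kif15: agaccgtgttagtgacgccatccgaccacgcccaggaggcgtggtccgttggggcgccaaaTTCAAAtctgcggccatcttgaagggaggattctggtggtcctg
Kif22: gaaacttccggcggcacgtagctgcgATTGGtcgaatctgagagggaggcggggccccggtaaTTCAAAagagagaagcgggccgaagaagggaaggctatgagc
Kif23: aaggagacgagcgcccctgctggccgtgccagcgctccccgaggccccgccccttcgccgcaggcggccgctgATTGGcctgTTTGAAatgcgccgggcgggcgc
Kif18b: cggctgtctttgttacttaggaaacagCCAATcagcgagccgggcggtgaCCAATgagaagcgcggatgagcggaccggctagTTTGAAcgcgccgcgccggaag
Kifc1: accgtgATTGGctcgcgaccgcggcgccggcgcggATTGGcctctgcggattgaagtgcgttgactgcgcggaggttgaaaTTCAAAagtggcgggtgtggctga
Kif20b: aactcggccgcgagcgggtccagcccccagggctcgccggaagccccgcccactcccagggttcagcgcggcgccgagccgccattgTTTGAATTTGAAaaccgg
Kif4: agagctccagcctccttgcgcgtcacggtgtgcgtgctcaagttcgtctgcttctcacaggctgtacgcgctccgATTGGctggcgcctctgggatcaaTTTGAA
Kif1c: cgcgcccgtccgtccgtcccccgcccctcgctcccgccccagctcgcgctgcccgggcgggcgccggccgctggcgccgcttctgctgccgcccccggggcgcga

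These windows lie at chr19:37376302-37376406 (+ strand), chr9:122951001-122951105 (+ strand), chr7:127042396-127042500 (- strand), chr9:61946775-61946879 (- strand), chr11:102925100-102925204 (- strand), chr17:33890609-33890713 (- strand), chr19:34922278-34922382 (+ strand), chrX:100625985-100626089 (+ strand) and chr11:70700468-70700572 (+ strand), in the order printed. TTTGAA was present in 10 of 11 mitotic promoters, against 2 of 16 promoters of other tested motor genes and 13.9% of 9713 tested genes with an entry. Over all 32851 promoters of the table, 17.9% held it. In 8 of the 11 it lay from 50 bases before the start onward, against 3.66% of tested genes. The match began 19 bases before the start in Kif11 and Kif15 and 17 before it in Kif22, whereas it began 2 bases after the start in Kif23, 3 after it in Kif18b and 19 after it in Kif4. Kif20b carries TTTGAA as a direct repeat. A CCAAT box was present in 7 of 11 mitotic promoters, against 5 of 16 other tested motor genes and 42.7% of tested genes. Both motifs were present in 7 of 11, against 1 of 16 and 5.66%. Kif18a held neither. Among the other tested motor genes, the TTTGAA matches were in Kif1a and in Kifc5b, the near copy of Kifc1. These are matches of letters, not measured binding sites.

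**Figure D1:**
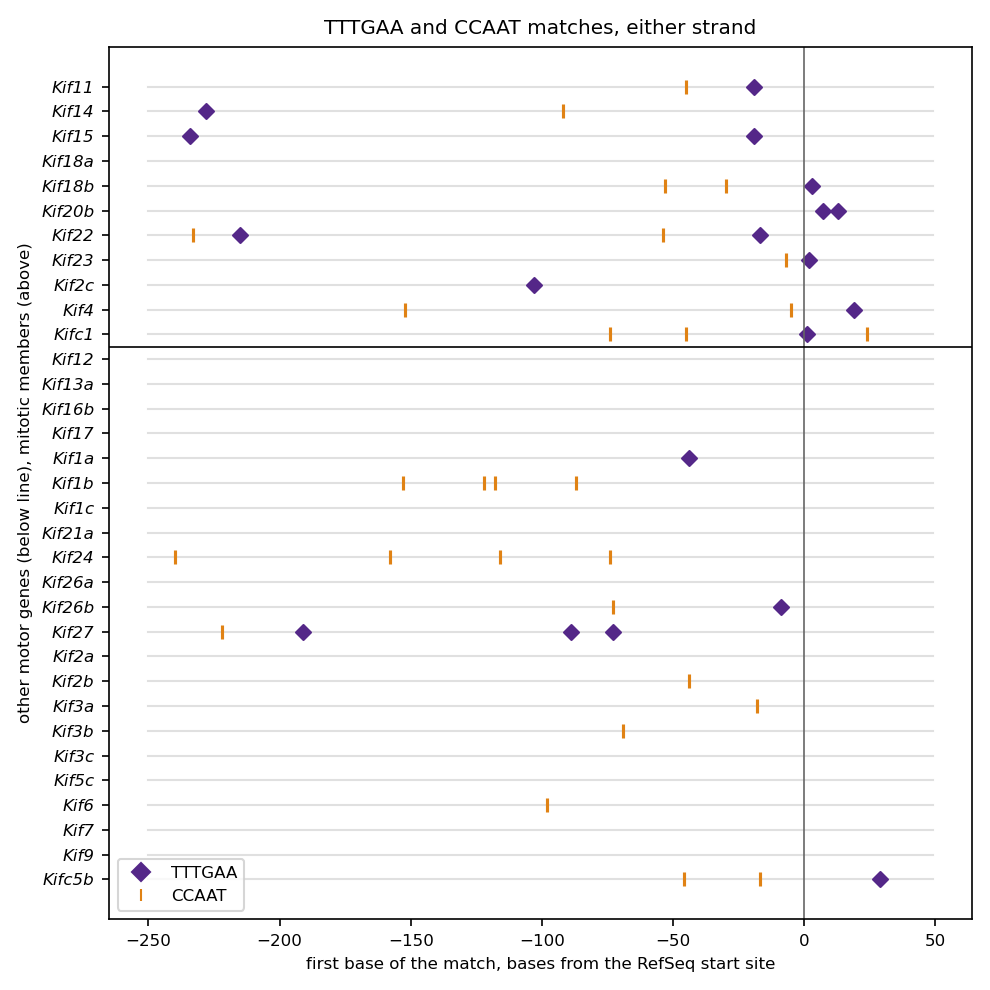
Positions of TTTGAA (diamonds) and CCAAT (bars) matches on either strand, in bases from the RefSeq start site, for each kinesin motor gene with a promoter entry. Matches of all entries are drawn where a gene has more than 1. Diamonds stand close to the start site in 8 of 11 mitotic members, above the line, and in 3 of 22 others, below it.

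The 2 classes were compared between KO and WT by same-numbered pair. Members were chosen with earlier results of these data known, so the counts per class are a description and not a test. All 12 mitotic kinesins rose in the libraries labelled KO, by 1.44-fold to 2.34-fold with a median log2 fold change of 0.78, while the other members stayed near 0, with a median of 0.01 over 23 tested. These calls come from edgeR's quasi-likelihood test with the replicate number as a block (the paired test), at a Benjamini-Hochberg false discovery rate (FDR) of 0.05 over 12753 tested genes. Over all tested genes, 4.81% rose in that test and 4.01% fell. Among the 23 tested other members, 1 rose and 0 fell. All 36 differences within pairs were positive for the mitotic class. A rise in 3 of 3 pairs was found for 20.5% of all tested genes, 12 of 12 mitotic members and 2 of 22 other motor genes, Kifc5b and Kif24. The medians of the mitotic class were 0.80, 0.82 and 0.73 (log2) in pairs 1, 2 and 3, and those of the other members 0.01, 0.01 and -0.01. The median over all tested genes was -0.003.

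Without the block (the group test), edgeR called 0 kinesins, against 0% of all genes called higher and 0.00784% called lower. The log2 fold changes of the mitotic members were then 0.52 to 1.22, with adjusted p values of 0.877 to 0.996. In that test 9 of the 12 had an unadjusted p under 0.05, against 2.64% of all tested genes that were higher and 2.15% that were lower at that level. DESeq2 without the block called 1 of the 12, Kif18b, with an adjusted p of 0.0114, and limma-voom called 0. The groups did not overlap for 6 of the 12, with each KO library above each WT library, against 5.25% of all tested genes. Both tests used the same libraries, and levels differed between replicate numbers. KO replicate 1 was the lowest KO library for 12 of 12 mitotic members, and WT replicate 1 the lowest WT library for 12 of 12. Replicate 3 was the highest in the KO group for 12 and in the WT group for 11. KO replicate 1 therefore lay below WT replicate 3 for 6 members, although it was above WT replicate 1 for all 12.

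**Figure D2:**
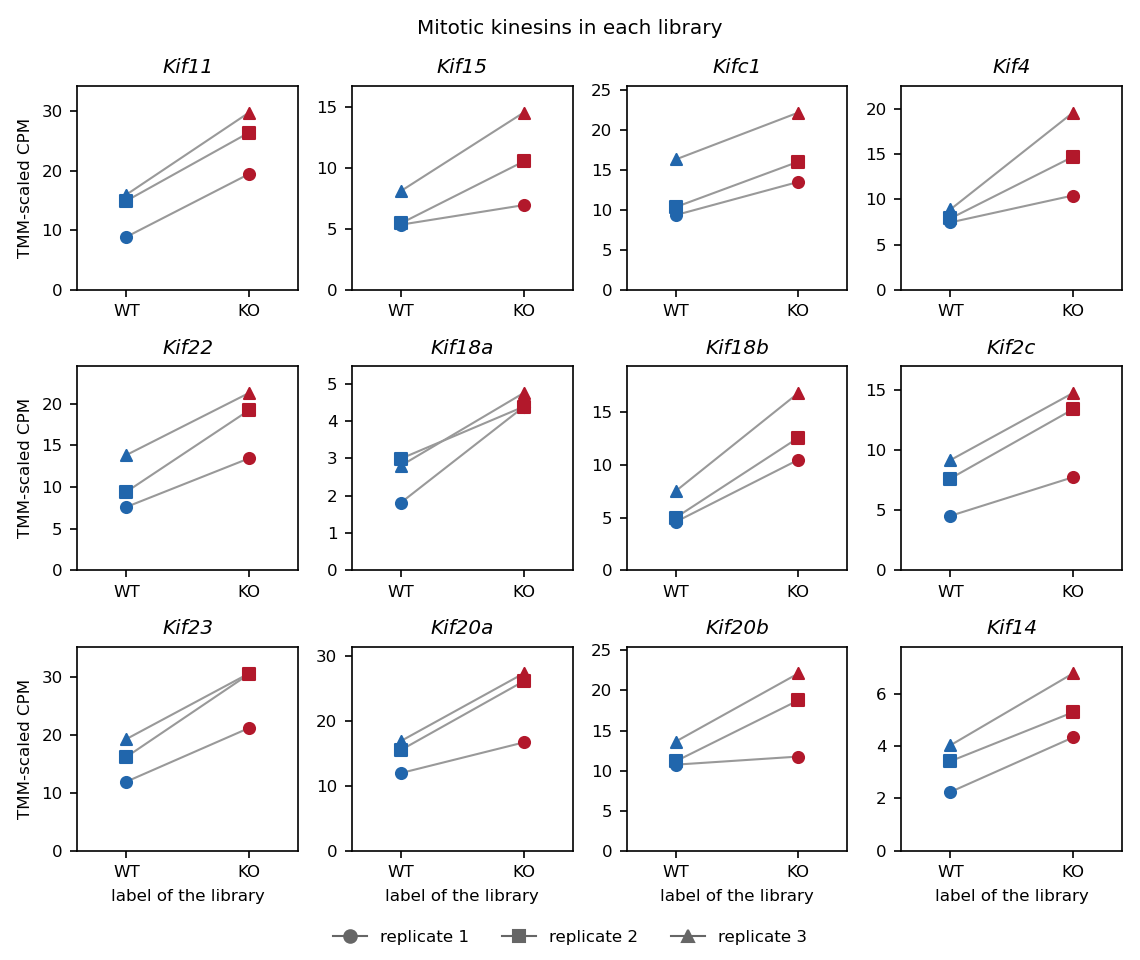
Level of each mitotic kinesin (TMM-scaled CPM, linear axis from 0) in the WT and KO libraries. Each symbol is 1 library, the symbol shape is the replicate number, and lines join same-numbered libraries. Each of the 36 lines goes up from WT to KO, and replicate 1 starts and ends lowest in each panel.

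Kif11, Kif15 and Kifc1 set up the spindle. Kif11 (Eg5), which slides antiparallel microtubules apart so that the poles separate, was measured at 19.4, 26.4 and 29.7 CPM in KO libraries 1 to 3 and at 8.88, 14.9 and 16.0 CPM in WT libraries 1 to 3. Each KO library lay above each WT library, and Kif11 rose by 0.94 ± 0.083 (log2, SE, adjusted p = 3.42e-11). Here and below, the SE of a fold change was derived from the F statistic of the paired test. It leans on variance shared between genes and is not the spread of the 3 pairs. Kif11 lies on GRCm38 chromosome 19, 37376403 to 37421859 (ENSMUSG00000012443). Kif15, which supports bipolarity beside Kif11, had 6.95, 10.5 and 14.5 CPM in the KO libraries and 5.35, 5.46 and 8.11 CPM in the WT libraries. Here the groups overlapped, since KO replicate 1 was below WT replicate 3. Kif15 rose by 0.74 ± 0.12 (log2, SE), with differences within pairs from 0.38 in pair 1 to 0.95 in pair 2.

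Kifc1, the minus-end-directed motor that focuses spindle poles and clusters centrosomes, showed the smallest rise of the class. It had 13.5, 16.0 and 22.2 CPM in the KO libraries and 9.36, 10.4 and 16.3 CPM in the WT libraries, and rose by 0.53 ± 0.090 (log2, SE, adjusted p = 4.35e-05). Its near copy Kifc5b was the only member outside the mitotic class that rose, from 3.35 ± 1.03 to 4.87 ± 1.73 CPM (SD, n = 3), by 0.53 ± 0.16 (log2, SE, adjusted p = 0.0246). Kifc5b was higher in 3 of 3 pairs, but it did not pass without pair 1 (adjusted p = 0.0949), without pair 3 (0.142) or with DESeq2 (0.490). Both genes lie on chromosome 17, Kifc1 at 33875659 to 33890661 and Kifc5b at 26917091 to 26932583. Of the 50-base words in Kifc5b transcripts, 36.6% also occur in Kifc1 transcripts. How reads that fit both were assigned is not given in the sources used here, so the split between them is uncertain.

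Chromosome movement and microtubule length in mitosis are the work of 5 members. Kif18b, which shortens astral microtubules, had the largest fold change of all tested kinesins. Its level was 10.5, 12.6 and 16.8 CPM in the KO libraries and 4.58, 4.99 and 7.50 CPM in the WT libraries, and it rose by 1.23 ± 0.11 (log2, SE, adjusted p = 4.84e-11). The rise was alike in the pairs, at 1.19, 1.33 and 1.16, and the groups did not overlap. Kif18b lies on GRCm38 chromosome 11, 102905529 to 102925124 (ENSMUSG00000051378).

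Its relative Kif18a, which dampens chromosome oscillation at the spindle equator, was the mitotic member with the lowest level per length. Kif18a had 4.38, 4.38 and 4.75 CPM in the KO libraries and 1.81, 2.99 and 2.81 CPM in the WT libraries. It rose by 0.84 ± 0.18 (log2, SE), and its KO libraries, unlike those of the other members, were close together. Kif2c (MCAK), a depolymerase that removes faulty kinetochore attachments, had 7.76, 13.4 and 14.8 CPM in the KO libraries and 4.54, 7.65 and 9.18 CPM in the WT libraries. Its groups overlapped, yet its differences within pairs were close, at 0.77, 0.81 and 0.69 on the log2 scale. The chromokinesins Kif4 and Kif22 push chromosome arms or organise the midzone. Kif4 had 10.4, 14.7 and 19.6 CPM in the KO libraries and 7.45, 7.89 and 8.88 CPM in the WT libraries, so its WT libraries varied little. Kif22 had 13.4, 19.2 and 21.3 CPM in the KO libraries and 7.59, 9.41 and 13.8 CPM in the WT libraries. They rose by 0.86 ± 0.11 and 0.82 ± 0.095 (log2, SE), with adjusted p values of 2.28e-07 and 2.19e-08. Within pairs 1, 2 and 3, Kif4 differed by 0.48, 0.90 and 1.14 and Kif22 by 0.82, 1.03 and 0.62 (log2).

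Cytokinesis is served by the remaining 4. Kif23 (MKLP1), the motor subunit of centralspindlin, had 21.1, 30.4 and 30.5 CPM in the KO libraries and 11.9, 16.2 and 19.2 CPM in the WT libraries. Its groups did not overlap and it rose by 0.80 ± 0.078 (log2, SE, adjusted p = 3.21e-10). Kif20a (MKLP2), which carries the chromosomal passenger complex to the midzone, had 16.7, 26.1 and 27.4 CPM in the KO libraries and 11.98, 15.5 and 16.9 CPM in the WT libraries. KO replicate 1 of Kif20a stood within the WT range, and the rise was 0.65 ± 0.082 (log2, SE). Kif20b rose mainly in pairs 2 and 3. It had 11.8, 18.8 and 22.1 CPM in the KO libraries against 10.7, 11.2 and 13.6 CPM in the WT libraries, with differences of 0.13, 0.75 and 0.70 (log2) within pairs 1, 2 and 3. Kif14, which binds citron kinase at the midbody, had 4.33, 5.29 and 6.78 CPM in the KO libraries and 2.24, 3.42 and 4.03 CPM in the WT libraries. It rose by 0.76 ± 0.15 (log2, SE). A rise of at least 1.5-fold was fitted for 10 of the 12, all except Kif20b and Kifc1, against 1.33% of tested genes that were called with that fold.

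In the paired test, 12 of 12 mitotic kinesins rose without pair 1, without pair 2 and without pair 3. Of all genes tested without pair 2, 2.66% rose and 1.61% fell. DESeq2 with the block called 10 of 12, against 2.07% of all genes called higher and 0.87% called lower. The exceptions were Kif14 (adjusted p = 0.0781) and Kif18a (adjusted p = 0.0958), both at under 7 CPM in each library. Some exons overlap a gene on the opposite strand, over 29.3% of the exon length for Kif20a (with Cdc23) and 15.1% for Kif4 (with Pdzd11), and the strand setting of the counting is not given in the sources used here. Cdc23 had a log2 fold change of 0.07 (adjusted p = 0.473) and Pdzd11 one of -0.04 (adjusted p = 0.808). In bulk RNA, more cells in division and more transcript per dividing cell cannot be told apart.

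**Figure D3:**
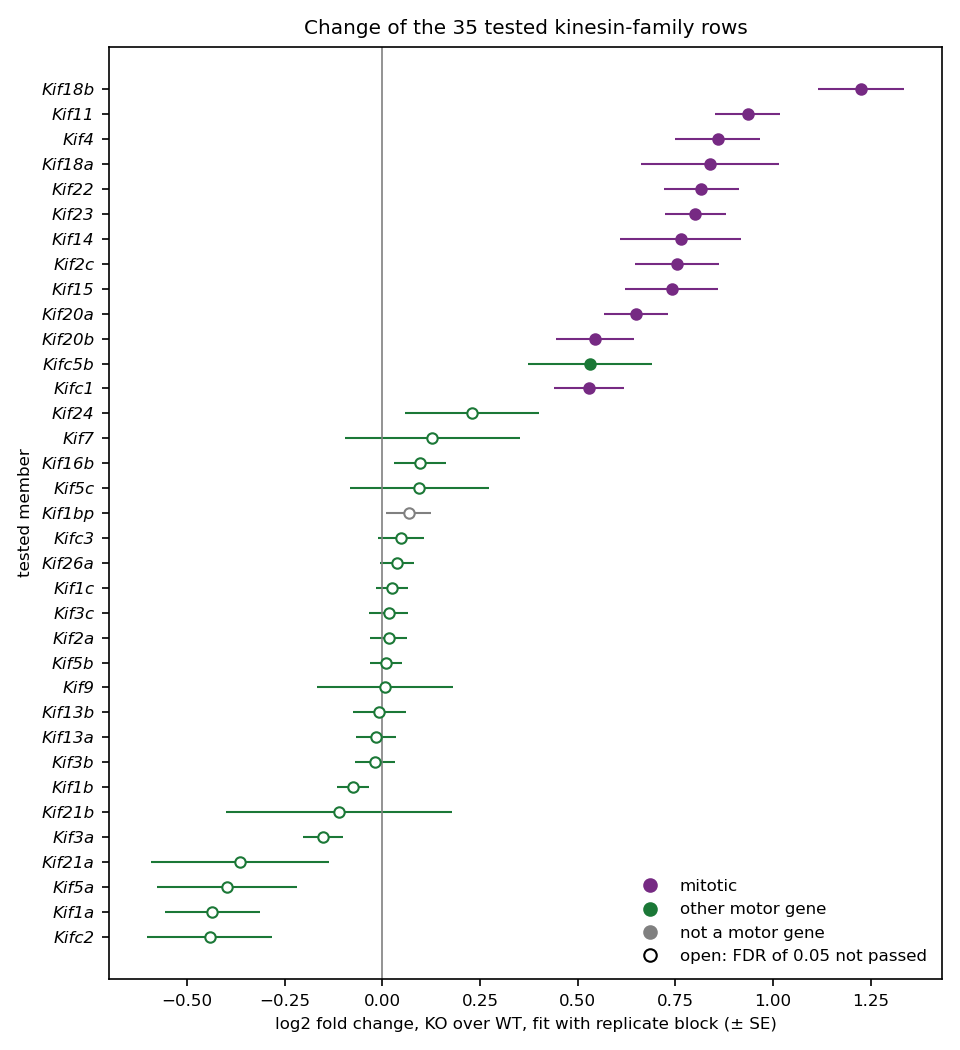
Log2 fold change of KO over WT with its standard error in the paired test, for the 35 tested members. Filled points passed an FDR of 0.05. The 12 mitotic members and Kifc5b are the filled points, from 0.53 upward, and the other members lie between -0.44 and 0.23.

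Transport motors made up most kinesin RNA and were close to equal between the groups. Levels between genes are compared per length, as mean CPM per kilobase of exon over the 6 libraries. On this scale Kif1c, a kinesin of vesicle transport and podosome turnover, stood first at 102, followed by Kif5b, the ubiquitous conventional kinesin heavy chain, at 56.8, the atypical Kif26a at 31.2 and the intraflagellar transport motor subunit Kif3a at 20.6. Kif2a, a depolymerase of spindle poles and cell processes, was at 14.5 and Kif1b, a motor of mitochondria and vesicles, at 12.6. The highest mitotic members were Kif20a at 4.41 and Kifc1 at 4.29, in places 11 and 12 of 41 motor genes. Kif1c, Kif5b, Kif1b and Kif26a together held 69.8% of all kinesin counts.

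Kif1c was measured at 748, 721 and 770 CPM in the KO libraries and 727, 699 and 777 CPM in the WT libraries, which gave 0.02 ± 0.040 (log2, SE, adjusted p = 0.795). Kif5b had 467, 442 and 456 CPM against 490, 428 and 439 CPM, which gave 0.01 ± 0.041 (log2, SE, adjusted p = 0.926). For both genes the direction turned with scaling by library size alone, to -0.002 and -0.02. Kif26a was at 229, 223 and 204 CPM in the KO libraries and 212, 214 and 213 CPM in the WT libraries. Its log2 fold change was 0.04 ± 0.042 (SE). Kif2a, the relative of Kif2c in the depolymerase family, was at 96.9, 91.8 and 90.4 CPM against 94.2, 90.6 and 91.2 CPM. Its value of 0.02 ± 0.046 (log2, SE, adjusted p = 0.895) stands beside 0.75 ± 0.11 for Kif2c.

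Of the 29 other motor genes, 22 passed the filter on low counts, and 13 of these averaged at least 20 CPM. The log2 fold changes of these 13 ran from -0.15 to 0.10, with the exception of Kif1a at -0.44. Kif13a, Kif13b and Kif16b, kinesins of endosomal and membrane cargo, had log2 fold changes of -0.02, -0.01 and 0.10, with SE between 0.051 and 0.068. The heterotrimeric kinesin subunits Kif3b and Kif3c were at -0.02 and 0.02. Kif3a was lower in 3 of 3 pairs, at 69.5, 78.9 and 61.4 CPM against 80.4, 91.5 and 61.9 CPM, and its log2 fold change of -0.15 ± 0.051 (SE) did not pass (adjusted p = 0.0557). It passed with scaling by library size alone (adjusted p = 0.0196) and without pair 3 (adjusted p = 0.00792). Kif1b was also lower in 3 of 3 pairs, by a fitted -0.07 ± 0.041 (log2, SE, adjusted p = 0.307). In all, 5 of 22 tested other motor genes were lower in 3 of 3 pairs, namely Kif5a, Kif3a, Kif13a, Kifc2 and Kif1b, against 20.2% of all tested genes.

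Kif5a, Kif5c and Kifc2, which are known from neurons, were at low levels. Kif5a and Kif5c, neuronal paralogues of Kif5b, averaged 2.81 ± 0.252 and 3.32 ± 0.782 CPM in the KO libraries and 3.70 ± 0.438 and 3.11 ± 0.391 CPM in the WT libraries (SD, n = 3). Kif5a was lower in each KO library than in each WT library, against 4.96% of all tested genes, but its log2 fold change of -0.40 ± 0.18 (SE) did not pass (adjusted p = 0.188). Kifc2, a minus-end motor of neurons, had the lowest fitted value of the family, -0.44 ± 0.16 (log2, SE, adjusted p = 0.0812). The summed level of 8 neuron markers was 18.2 to 30.7 CPM in the KO libraries and 12.6 to 45.5 CPM in the WT libraries, most of it from Tubb3 and Stmn2. Map2, Snap25, Syt1 and Rbfox3 were at or near 0, at no more than 0.255 CPM in any library. Of the ciliary and centriolar motors, Kif24, which restrains cilium assembly, had 3.52, 3.69 and 3.82 CPM in the KO libraries and 3.06, 3.14 and 3.21 CPM in the WT libraries. These do not overlap, but the log2 fold change of 0.23 ± 0.17 (SE) did not pass (adjusted p = 0.494). Kif7, a Hedgehog regulator at the cilium tip, was at 0.13 ± 0.22 and Kif9 at 0.01 ± 0.17 (log2, SE).

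The 9 members that were not tested were low in all libraries. Kif2b, Kif12 and Kif4-ps had 0 counts throughout, which allows up to 0.171 CPM in the shallowest library (3 counts, counting error only). Kif6, Kif17, Kif19a, Kif27 and Kif16bos had at most 6 counts in a library. Kif26b had 6, 35 and 7 counts in the KO libraries and 2, 56 and 7 in the WT libraries, which is high in replicate 2 of both groups.

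That pattern was shared by Kif1a, the neuronal motor of synaptic vesicle precursors, and by Kif21b, a regulator of microtubule growth. Kif21a, Kif3a and Kif13a were also highest in replicate 2 of both groups, but over narrower ranges. Their highest library was 3.28, 1.49 and 1.08 times the lowest, against 15.4 times for Kif1a, 11.5 for Kif21b and 27.9 for Kif26b. Kif1a was measured at 4.81, 50.2 and 18.95 CPM in the KO libraries and 8.88, 73.9 and 18.8 CPM in the WT libraries. The range over replicate numbers was far wider than the gap between KO and WT. Its fitted log2 fold change was -0.44 ± 0.12 (SE, adjusted p = 0.0574), and within pairs it was -0.89, -0.56 and 0.01. Without pair 2 it was -0.32 (adjusted p = 0.160), whereas it passed without pair 1 and without pair 3 (adjusted p = 4.15e-05 and 5.37e-11). Kif21b had 0.286, 2.94 and 0.985 CPM in the KO libraries and 0.668, 3.28 and 0.561 CPM in the WT libraries. Col1a1, a fibroblast collagen, stood at 71.0, 508 and 220 CPM in the KO libraries and 88.5, 730 and 239 CPM in the WT libraries. Pdgfrb, a receptor of mural cells, stood at 10.5, 53.8 and 11.4 CPM against 15.9, 81.3 and 10.2 CPM. The summed level of 8 fibroblast markers ran from 112 to 898 CPM in the KO libraries and from 153 to 1255 CPM in the WT libraries, with Lum at or near 0. Of the tested fibroblast markers 1 of 6 rose and 2 of 6 fell, and of 8 mural markers, whose sum ran from 1417 to 2222 CPM, 0 rose and 3 fell. Over all tested genes, 4.81% rose and 4.01% fell. Of the 8 mural markers, 2 were higher in KO in pair 1, 1 in pair 2 and 7 in pair 3. The mural marker Tagln went the other way and was lowest in replicate 2 of both groups. The neuron markers Tubb3 and Stmn2 were also highest in replicate 2 of both groups. The tested neuron markers Nefl and Gap43, at no more than 0.714 and 1.38 CPM, were not. Within the KO group both were lowest in replicate 2, and within the WT group both were highest in replicate 3. Tubb3, a tubulin, was at 14.8, 22.6 and 13.2 CPM in the KO libraries and 9.12, 32.4 and 12.6 CPM in the WT libraries. Stmn2, a microtubule regulator of growing axons, was at 2.00, 7.16 and 6.55 CPM against 2.15, 11.3 and 7.75 CPM. The pattern was not limited to markers of other cells, since the endothelial markers Vwf and Tek were also highest in replicate 2 of both groups. Vwf was at 340.5, 850.4 and 208.7 CPM in the KO libraries and 299.7, 814.9 and 231.5 CPM in the WT libraries. The endothelial markers Pecam1, Cdh5, Kdr, Tie1, Emcn and Erg did not have this pattern. The part of stromal or neuronal RNA in the levels of Kif1a, Kif21b and Kif26b was not tested.

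**Figure D4:**
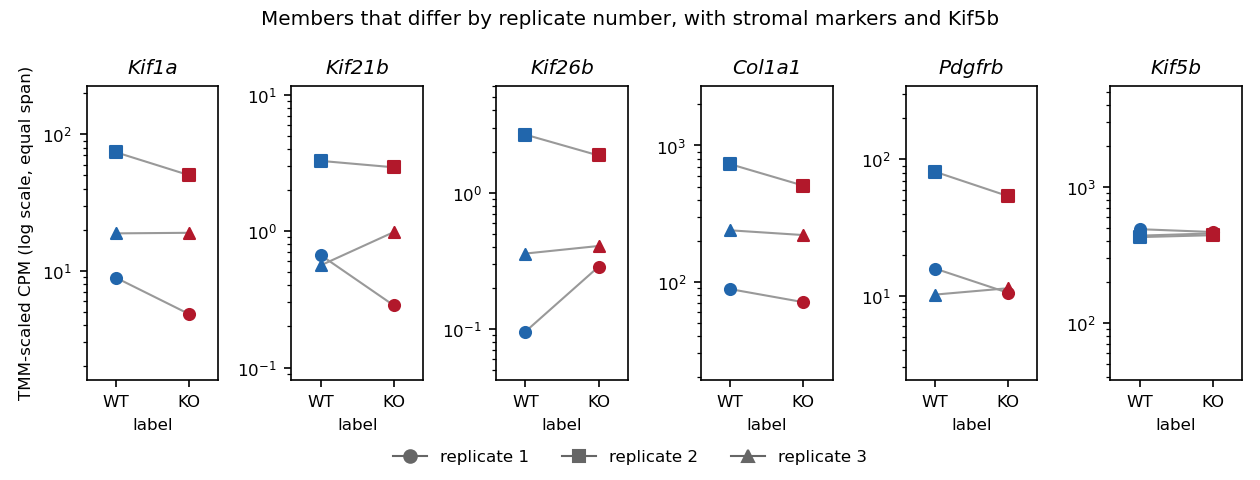
Levels of Kif1a, Kif21b and Kif26b, of the stromal markers Col1a1 and Pdgfrb and of Kif5b in each library (TMM-scaled CPM, log axes that span the same fold range). Replicate 2, the square, is highest in both groups for each gene other than Kif5b, whose libraries lie between 428 and 490 CPM.

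A share within a library does not depend on scaling between libraries. Of all kinesin counts, the mitotic class took 5.97% (95% exact binomial interval 5.76% to 6.18%), 8.32% (8.06% to 8.58%) and 9.57% (9.29% to 9.86%) in KO libraries 1 to 3. In WT libraries 1 to 3 it took 3.75% (3.58% to 3.93%), 4.81% (4.619% to 5.004%) and 5.88% (5.66% to 6.10%). These intervals cover counting error only. The share was higher in the KO library of each pair, by 2.22, 3.51 and 3.69 percentage points, and its mean was 7.95% ± 1.83 against 4.81% ± 1.06 (SD, n = 3). KO replicate 1 and WT replicate 3 were at nearly the same share. Kinesin counts as a whole made up 0.231% to 0.239% of each library. The proliferation marker Mki67 moved alongside: it was at 53.4, 75.7 and 93.1 CPM in the KO libraries and 30.8, 37.1 and 46.4 CPM in the WT libraries. The summed mitotic kinesin level was 2.62, 2.61 and 2.48 times that of Mki67 in the KO libraries and 2.80, 2.97 and 2.94 times in the WT libraries. Mki67 thus differed more between the groups than the summed kinesins did, in each pair.

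**Figure D5:**
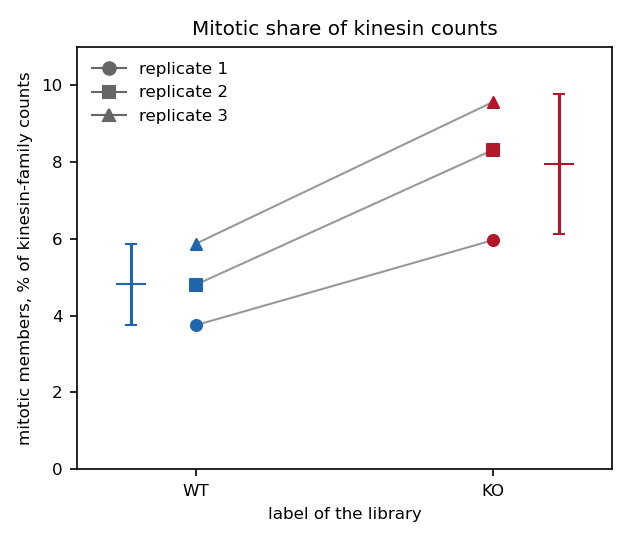
Share of kinesin-family counts that fell in the 12 mitotic members, by library, with lines joining same-numbered libraries. The horizontal marks and bars at the sides are the mean and SD of 3 libraries, 4.81% ± 1.06 for WT and 7.95% ± 1.83 for KO.

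Genes that work with the mitotic kinesins moved in the same direction. Cenpe, a kinetochore kinesin whose symbol falls outside the Kif rule, was at 14.2, 24.3 and 28.04 CPM in the KO libraries and 9.07, 11.6 and 13.9 CPM in the WT libraries. It rose by 0.93 ± 0.090 (log2, SE, adjusted p = 3.1e-10). Of 25 partners and regulators of mitotic kinesins, 20 rose, 0 fell and 5 did not pass. Over all tested genes, 4.81% rose and 4.01% fell. The median over the list was 0.76 (log2). The list was drawn up with earlier results of these data known, and most of its genes are expressed chiefly in dividing cells. Racgap1, the partner of Kif23 in centralspindlin, rose by 0.89 from 17.4 ± 3.86 to 32.1 ± 6.32 CPM (SD, n = 3). Tpx2, which loads Kif11 and Kif15 onto the spindle, rose by 0.85, Prc1, the midzone bundling protein that binds Kif4, by 0.80, and Anln, a scaffold of the contractile ring, by 0.86 on the log2 scale. The 5 that did not pass were Ckap5, Numa1, Nek6, Nek7 and Nek9, with log2 fold changes from -0.01 to 0.07. These 5 had levels between 77.4 and 277 CPM over the 6 libraries. The same 20-gene count was reached without pair 2.

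Few genes of the transport machinery passed the test, whereas 4 of 12 tested tubulins, the subunits of the track, rose. Over all tested genes, 4.81% rose and 4.01% fell. Of 18 tested kinesin light chains and cargo adaptors, 1 rose and 1 fell, and the median was 0.01 (log2). Fez2, a kinesin adaptor, rose by 0.15, and Mapk8ip3 (JIP3), a scaffold that links cargo to kinesin light chains, fell by 0.16 on the log2 scale. Rhot2 and Arl8b, which recruit kinesins to mitochondria and lysosomes, had log2 fold changes of -0.11 and -0.08 and did not pass. Of 29 tested dynein and dynactin genes, 0 rose and 1 fell, the dynein adaptor Bicd1, by 0.42. Dctn1, Dynll1 and Dynlrb1 were at 0.09, 0.10 and 0.11 (log2) and did not pass. Of 23 intraflagellar transport genes 0 rose and 0 fell, and the median was -0.02 (log2); Ift81, Ift140, Traf3ip1 and Ttc30b were at -0.27, 0.19, -0.17 and -0.20 (log2). Of the tubulins 0 fell, and their median was 0.11 (log2): Tuba1b rose by 0.38, Tuba1c by 0.22, Tubb6 by 0.20 and Tubb5 by 0.18 on the log2 scale. Tuba1b had 58.3, 69.6 and 80.6 CPM in the KO libraries and 44.0, 55.6 and 60.2 CPM in the WT libraries.

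Markers of other cells were read beside these values. Over all tested genes, 4.81% rose and 4.01% fell. Of 5 tested haematopoietic markers 3 rose, Lcp1, Laptm5 and Coro1a, and 0 fell, while Cd68 and Aif1 did not pass. The sum of the list was 475 to 609 CPM in the KO libraries and 392 to 537 CPM in the WT libraries. Most of it came from Lcp1 and Laptm5. Ptprc was at no more than 0.334 CPM in any library, and Tyrobp and Rac2 had 0 counts in all 6. Glial markers summed to at most 3.05 CPM, with Aqp4 and Sox10 at 0, and motile cilium markers to at most 6.35 CPM. Of 4 tested neuron markers and of 2 tested glial and 2 tested motile cilium markers, 0 passed. Of 8 endothelial markers 2 rose, Emcn and Tek, and 0 fell. Whether haematopoietic transcripts had a part in the rise of the mitotic class was not tested.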

How the data were processed

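Polyadenylated RNA of 6 libraries was sequenced. The deposited table holds raw read counts per gene symbol, which the authors did not normalise. The submitters' processing notes list the aligner STAR 2.6.1d, the Subread 1.6.4 package and featureCounts, the read tools Trim Galore 0.6.4 and FastQC 0.11.8, and the builds mm10 and GRCm38. Per the labels' protocols, either a non-stranded or a stranded TruSeq kit was used. For annotation, strand setting and multi-mapped reads, the choice is not given in the sources used here.

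In R 4.3.3, edgeR 4.0.16 kept genes passing filterByExpr (12753), scaled libraries by TMM (factors 0.983 to 1.02) and compared KO with WT by the robust quasi-likelihood test at a Benjamini-Hochberg FDR of 0.05, without a block (the designed test) and with the replicate number as a block. The groups share numbers 1 to 3, and same-numbered libraries deviated together across genes (correlations of 0.776, 0.857 and 0.652). The numbers were therefore taken to pair the libraries; the labels do not state a pairing. With the block the biological coefficient of variation was 0.0383, against 0.189 without it, and 2 residual degrees of freedom remained of 4, so small paired p-values lean on variance shared between genes. An exact test of 3 against 3 that ignores the pairs cannot go below p = 0.1, and an exact test on 3 pairs has a higher floor. DESeq2 1.42.0, limma-voom (limma 3.58.1), other scalings, no filter, an FDR of 0.01 and left-out libraries or pairs were alternatives. Tests were run on counts simulated from the fit with the block, where 5.29% of the calls of edgeR with the block were false. Such counts cannot show whether the block is warranted. Fold changes are KO over WT on the log2 scale. Positions and exon lengths are from GENCODE M21 (GRCm38), which matched all 44 members.

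Members and lists were chosen with earlier results of these data known, so each list is described by counts and medians, with no test. Named were all mitotic members, other members that passed or had the most extreme changes, the most abundant member of each kinesin family, and from each list of related genes the 4 with the smallest paired p; other genes were chosen after their values were seen.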

Additional observations from a re-analysis of the deposited data

How the results depend on the processing

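The replicate block decided the calls: without the block, mitotic and other kinesins called higher numbered 0 and 0, against 12 and 1 with the replicate block, partners of mitotic kinesins and tubulins 0 and 0 against 20 and 4, and all genes 0 higher and 1 lower against 613 and 511. The cause of the other differences was not tested. Without the block, DESeq2 called 11 genes higher and 7 lower, among them 1 mitotic kinesin, limma-voom and an FDR of 0.01 called 0 lower, and leaving out 1 library gave 0 to 1 lower. With the block, DESeq2 called 264 higher and 111 lower, an FDR of 0.01 gave 388 and 259, and leaving out a pair gave 339 to 603 and 205 to 600; 12 mitotic kinesins were higher in each of these except DESeq2, with 10. Other members called higher fell to 0 with DESeq2 and at an FDR of 0.01, and were 0 to 1 without a pair. Other members called lower rose from 0 to 2 (Kif1a and Kif3a) with scaling by library size alone and with no low-count filter and to 1 (Kif1a) with limma-voom, and were 0 to 2 without a pair. The mitotic median ranged from 0.73 to 0.78 without a pair and that of the other members from 0.0016 to 0.030, at -0.016 with library size alone. The mitotic share differed by 3.14 percentage points on raw counts, 4.02 on counts per kilobase, 4.51 with Kif1c left out and 2.86 to 3.601 without a pair. Direction turned for uncalled members only. With library size alone, Kif5b, Kif1c, Kif9 and Kif2a were at -0.018, -0.0022, -0.019 and -0.011 without the block and at -0.016, -0.0015, -0.020 and -0.011 with it, and Kif9 was at -0.00024 with limma-voom and the block. Leaving out 1 library without the block gave Kif1a -1.52 to 0.83, Kif5b -0.033 to 0.070, Kif1c -0.015 to 0.067, Kif9 -0.17 to 0.31, Kif2a -0.015 to 0.036 and Kifc3 -0.022 to 0.14. Leaving out a pair gave Kif5b -0.011 to 0.049, Kif9 -0.20 to 0.18 and Kif26a -0.0038 to 0.086. Alternatives for the partner and tubulin lists were chosen after seeing the data. Members under 7 CPM in each library had standard errors of 0.15 or more, so changes as small as these errors were hardly detectable there. Larger changes were called at such levels with the block, for Kif14, Kif18a and Kifc5b at 0.76, 0.84 and 0.53 (log2).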
